A study of Homo sapiens with 7 samples.

Results

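Chromatin immunoprecipitation of HOXB13 carrying an acetyl group on lysine 13 (HOXB13-K13ac) gave 41303 peaks in replicate 1. Of these, 8905 (21.6%, exact 95% binomial interval 21.2 to 22.0) shared no base with a peak of 3 other HOXB13-K13ac lists. These lists were those of replicates 2 and 3, each called against input chromatin, and a further list against input that no label ties to a library, called the unassigned list here. The 8905 peaks, called replicate 1-only peaks below, were therefore chosen by measured values, and everything that follows about their overlap, enrichment and width is a description with no test. All intervals cover counting error alone, and peaks next to each other are not independent.

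All libraries came from C4-2B, a cell line of castration-resistant prostate cancer, grown in medium with charcoal-stripped serum, which is low in steroid hormones, and given no other treatment. The series holds 3 HOXB13-K13ac precipitations, 2 precipitations with IgG, a non-specific antibody, and 2 inputs, which are sheared chromatin that was not precipitated. Replicate 1 belongs to library series 2898 and replicates 2 and 3 to library series 3047, so replicate and library series cannot be told apart for the peaks described here. The control against which the replicate 1 list was called is not named, its name differs from that of replicate 3 by punctuation alone, and read depths are unknown. The labels do not say if the replicates were separate cultures.

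The homeobox transcription factor HOXB13 patterns the posterior body axis and is kept in the adult prostate, where it binds enhancers together with the androgen receptor and the forkhead factor FOXA1. Acetylation of a lysine is written by acetyltransferases and can be read by bromodomain proteins, and dense groups of active enhancers are known as super-enhancers. A ChIP-seq peak is a stretch of the genome where precipitated fragments pile up above the control. Its fold enrichment is the ratio of that pile-up to the local control level at the summit, and its q is the false discovery rate given by the peak caller.

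The replicate 1-only peaks were weak and narrow within their list. Their median fold enrichment was 3.39 (interquartile range 2.92 to 4.02, full range 1.36 to 17.6), while the replicate 1 peaks that shared a base with another list had a median of 5.46 (3.86 to 8.38) and all replicate 1 peaks 4.67. Their median −log10 q was 5.12 (interquartile range 3.41 to 7.72), beside 17.0 for the shared peaks and 12.0 for the whole list. The median width was 348 bp (272 to 466), beside 644 bp for the shared peaks and 555 bp for the list. Together they covered 3.50 Mb of the 29.4 Mb under replicate 1 peaks.

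A −log10 q of at least 5 was met by 4519 of the replicate 1-only peaks (50.7%), and the share over all replicate 1 peaks was 80.7%. At a −log10 q of at least 20 the count was 183 (2.06%), where the whole list had 35.7%. A q above 0.05 was carried by 126 (1.41%), and by 0.557% of the whole list. These shares describe values from the list that the selection itself used, and nothing further is read from them.

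Enrichment and width were lower the fewer lists held the site. From peaks found in replicate 1 alone through those shared with 1, 2 and 3 of the other lists, the median fold enrichment was 3.39, 3.74, 5.46 and 10.4. The series has 3 HOXB13-K13ac libraries, and the unassigned list may come from a library that already has a list here. These are therefore counts of lists and not of libraries. The median widths were 348, 416, 648 and 1094 bp in the same order. A narrow peak has fewer bases that could be shared, so part of this order is built into the rule. Among peaks of up to 250 bp, 60.0% (58.1 to 61.9) were in replicate 1 alone, and among those of more than 1000 and up to 2000 bp the share was 1.54% (1.26 to 1.87). Within the narrow band of −log10 q from 3 to 7, the share still ran from 62.1% of peaks of up to 250 bp to 24.7% of those of more than 700 and up to 1000 bp.

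The share of replicate 1-only peaks also declined along the strength of the peak. It was 61.0% of the 769 peaks with a −log10 q below 2, 52.0% of the 5280 peaks from 3 to 5, 27.3% of the 5243 peaks from 7 to 10 and 3.20% of the 4161 peaks from 20 to 30. Of the 5732 peaks at a −log10 q of 50 or more, 1 was in replicate 1 alone. At equal −log10 q they were narrower than shared peaks in every class that could be compared: 324 against 388 bp from 3 to 5, 428 against 563 bp from 10 to 15, and 445 against 859 bp from 30 to 50. Their fold enrichment in these 3 classes was 3.11 against 2.97, 4.90 against 4.71, and 8.41 against 8.36. The lower fold of the whole set was thus not seen among peaks of like q. Fold and q come from the same peak call, so this likeness is in part built in and nothing further is read from it.

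**Figure D1:**
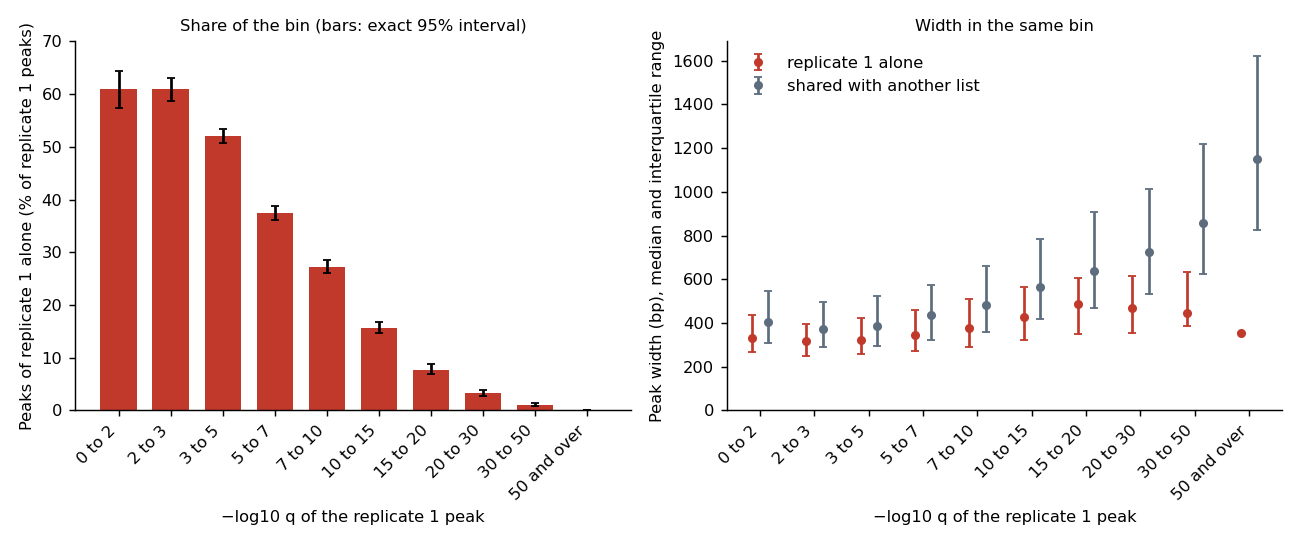
Left, share of replicate 1 peaks found in replicate 1 alone (bars, with exact 95% binomial intervals) by class of −log10 q, falling from 61.0% below 2 to 1 of 5732 peaks at 50 and over. Right, median width in bp (points) with the interquartile range (lines) for peaks of replicate 1 alone and shared peaks in the same classes, where the replicate 1-only median is the lower of the pair throughout and the class of 50 and over holds a single such peak.

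Ordered by p, the first of them stood at rank 966 of the list and the second at rank 5992. The strongest 10000 peaks held 37 (0.370%), and the weakest 10000 held 5200 (52.0%). Strong peaks of this kind were thus few, and the 15 with the highest fold enrichment are described one by one further on.

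Replicate 2 was the list that decided most of the membership. It shared a base with 31768 of the replicate 1 peaks (76.9%), the unassigned list with 27825 (67.4%) and replicate 3 with 4836 (11.7%). Of the peaks kept out of the set, 4495 shared a base with replicate 2 alone, 455 with the unassigned list alone and 67 with replicate 3 alone. Absence from replicate 3 hence adds little to the definition: without that list the set would hold 8972 peaks, and without replicate 2 it would hold 13400.

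Many of the peaks lay close to, but not on, a site of another list. The gap to the nearest peak of the 3 lists had a median of 1977 bp (interquartile range 342 to 12637 bp). It was no more than 1 kb for 3715 peaks (41.7%, 40.7 to 42.8) and no more than 10 kb for 6326 (71.0%, 70.1 to 72.0). Gaps of 150 to 199 bp were the most frequent 50-bp class, with 431 peaks, against 242 in the class of 0 to 49 bp and 52 in that of 950 to 999 bp. By single list, 38.7% lay within 1 kb of a replicate 2 peak, 29.3% of an unassigned peak and 4.47% of a replicate 3 peak.

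**Figure D2:**
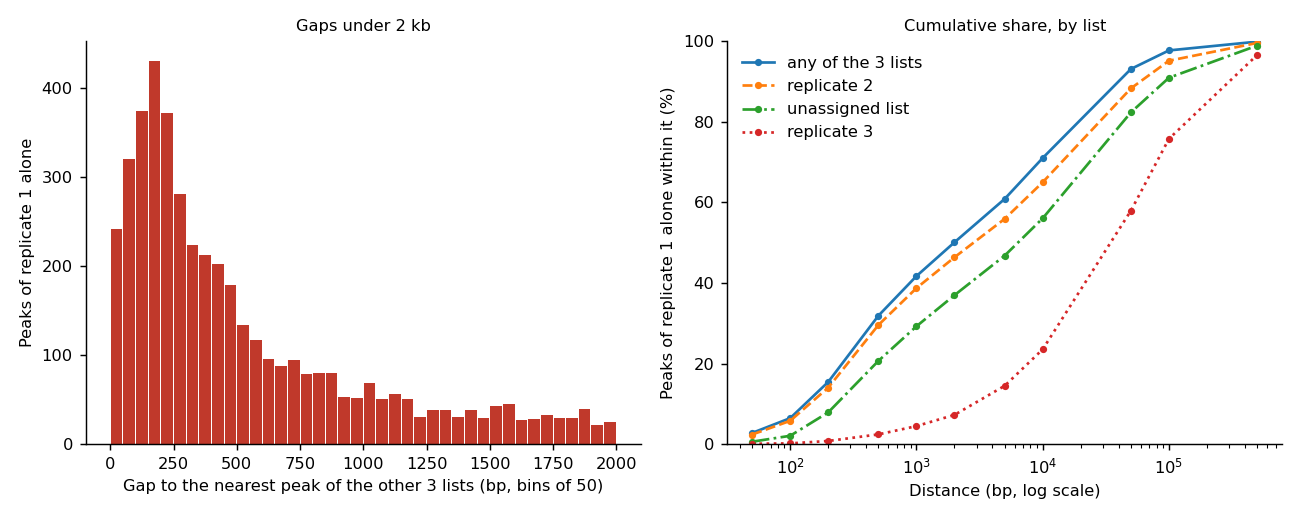
Left, number of replicate 1-only peaks by gap in bp to the nearest peak of the other 3 lists, in bins of 50 bp, highest at 150 to 199 bp with 431 peaks. Right, cumulative share in percent within a given distance (log axis, bp) of any of the 3 lists and of each list, reaching 41.7% at 1 kb and 71.0% at 10 kb for any list.

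Most of the 3715 peaks within 1 kb stood beside sites that replicate 1 also shared with another list. For 2579 of them (69.4%, 67.9 to 70.9) another replicate 1 peak that was itself shared also lay within 1 kb, at a median gap of 276 bp (interquartile range 158 to 484.5, smallest 50 bp). Shared replicate 1 peaks also often had another replicate 1 peak close by. Their gap to the nearest one had a median of 311 bp (interquartile range 149 to 7195). For all replicate 1-only peaks this median was 2565 bp (332 to 22203). The nearest peak of the other lists belonged to replicate 2 for 3126 (84.1%), to the unassigned list for 466 (12.5%) and to replicate 3 for 123 (3.31%). In 2530 cases (68.1%, 66.6 to 69.6) this nearest peak also shared bases with a replicate 1 peak. Over all replicate 2 peaks the corresponding share was 62.9%, and over the replicate 2 peaks next to a replicate 1-only peak 70.7%. Where the neighbour was so shared, its median fold enrichment was 7.53 and its median width 739 bp, and where it was not, 4.71 and 420 bp.

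Summit positions placed the signal toward that neighbour in a small majority. The summit lay in the part of the peak nearer to the neighbour in 2142 of 3715 (57.7%, 56.1 to 59.3). Summits of the replicate 1-only peak and its neighbour were a median of 809 bp apart (interquartile range 583.5 to 1118). Per the labels' protocols, the chromatin was sheared to fragments of 1 kb, a length in the same range as these distances. The part of fragment length in these gaps was not tested.

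Peaks near another list and peaks far from one had like median fold enrichment. The median fold was 3.44 for the 3715 within 1 kb, 3.29 for the 2611 from 1 to 10 kb and 3.43 for the 2579 (29.0%) beyond 10 kb. The median −log10 q was 5.28, 4.67 and 5.15, and the median width 354, 355 and 332 bp, in the same order. A −log10 q of at least 5 was met by 54.5% (52.9 to 56.1), 44.7% (42.7 to 46.6) and 51.5% (49.6 to 53.5), beside 50.7% of the set. The share within 1 kb was higher among stronger peaks. It was 34.9% (32.1 to 37.7) at a −log10 q from 2 to 3, and 40.7% from 3 to 5. It was 44.9% from 7 to 10 and 50.4% (41.6 to 59.2) from 20 to 30. A −log10 q of at least 20 was met by 95 (2.56%), 31 (1.19%) and 57 (2.21%) in the 3 distance classes. The remote peaks were thus not confined to the weakest calls. Among them, 278 of 2579 (10.8%, 9.61 to 12.0) had another replicate 1-only peak within 500 bp, beside 991 of all 8905 (11.1%) and 12 of the 200 beyond 100 kb (6.0%, 3.14 to 10.2).

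The 15 peaks with the highest fold enrichment ranged from 17.6 down to 9.57, and their −log10 q from 33.2 to 107. Of these, 9 lay within 1 kb of a peak of another list, 2 between 1 and 10 kb, and 4 farther away. All 9 of the near ones had a shared replicate 1 peak beside them, at 53 to 362 bp. Positions are on hg19, counted from 1, and carry no gene names because no annotation of that build was used here.

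The highest value was at chr12:116715144-116715499, a peak of 356 bp whose fold was 17.6 and whose −log10 q was 107. A replicate 2 peak began 175 bp away with a fold of 6.94, an unassigned peak lay at 194 bp with 5.45, and a shared replicate 1 peak at 96 bp. Thus the most enriched replicate 1-only peak stood beside a site that 3 lists held, the unassigned list among them. The neighbouring signal in the other lists was the lower one. At chr19:7660235-7660731 (fold 12.1, −log10 q 47.0) the replicate 2 peak was 98 bp away with a fold of 6.08 and the unassigned peak 110 bp away with 7.01.

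The nearest replicate 2 peak had the higher fold in 3 other cases. Beside chr2:42720757-42721142 (fold 11.5) lay a replicate 2 peak of fold 18.9 at 53 bp and an unassigned peak of 13.0 at 105 bp. Beside chr13:111214244-111214684 (fold 10.1) these were 20.3 at 140 bp and 17.6 at 169 bp. At chr7:139477913-139478624 the fold of 10.1 faced a replicate 2 fold of 10.9 at 299 bp, while the unassigned peak at 364 bp had a lower fold, 8.91. Since replicate 1 has an unnamed control, the order of folds between lists is a description only.

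At chrX:49125799-49126112 (fold 10.4) the peak sat between 2 shared replicate 1 peaks. On the nearer side a replicate 2 peak of fold 7.33 ended 27 bp away, and on the other side lay a replicate 2 peak of 25.5, an unassigned peak of 19.0 and a shared replicate 1 peak of 16.6. The peak was thus flanked by a weaker and a stronger site. In the last 3 of the near peaks the nearest replicate 2 peak had the lower fold. At chr11:77790977-77791362 (fold 9.87) the replicate 2 peak had a fold of 4.07 at 161 bp. The remaining pair were chr17:75276884-75277333 (fold 9.70, with a replicate 2 peak of 5.21 at 191 bp) and chr1:10739837-10740311 (fold 9.57, with a replicate 2 peak of 6.93 at 38 bp and an unassigned peak of 5.24 at 70 bp). The last of these lay inside 1 of the 2 runs with the most replicate 1-only peaks, given below.

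The other 6 of the 15 had no other-list peak within 1 kb. At chrX:55026030-55026740 the fold was 11.3 and the nearest peak of the 3 lists was 14406 bp away, while a second replicate 1-only peak lay at 78 bp. At chr6:170124227-170124580 the fold was 11.1, the nearest other-list peak 20832 bp away, and a second replicate 1-only peak at 224 bp. Both were therefore pairs of adjacent peaks that 1 library held and the other lists did not.

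The peak at chrX:56755657-56756079 (fold 9.87) had no peak of the 3 lists within 34278 bp and no other replicate 1 peak within 35080 bp. At chr1:17287283-17287727 (fold 9.66) these distances were 11604 and 11746 bp. The intermediate cases were chr17:72838587-72839404 (fold 10.8, nearest other-list peak from replicate 3 at 5399 bp, another replicate 1-only peak at 732 bp) and chr19:58661698-58662135 (fold 10.2, nearest at 3463 bp). In this group of 15, 3 peaks were on the X chromosome.

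**Figure D3:**
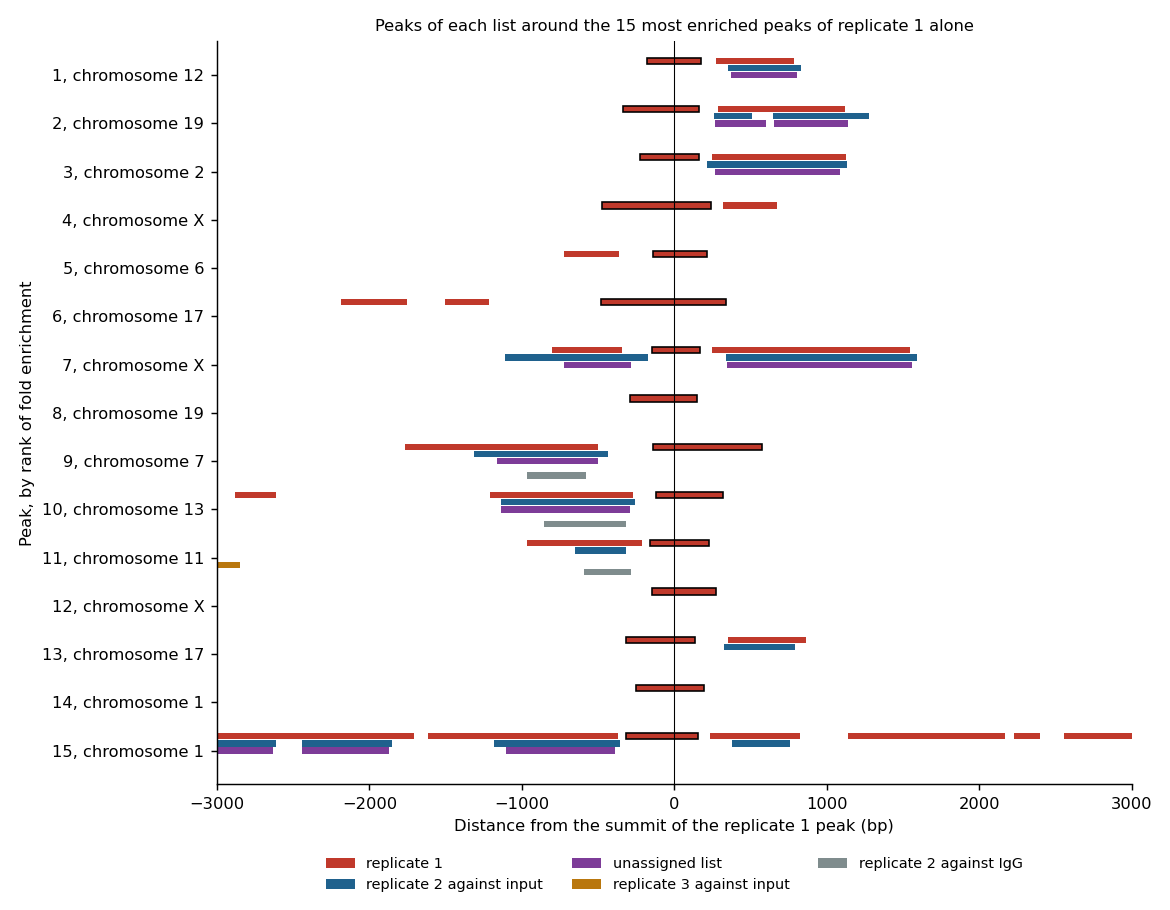
Peaks of the lists within 3 kb of the summits (x axis, bp) of the 15 replicate 1-only peaks with the highest fold enrichment, 1 row per peak by rank with its chromosome, and the replicate 1-only peak outlined. In 9 rows peaks of replicate 2 or the unassigned list stand beside the outlined peak together with another replicate 1 peak, and in the rows of rank 4, 5, 6, 8, 12 and 14 no peak of the other lists lies within the plotted span.

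Wide peaks were rare. Only 104 (1.17%) of the replicate 1-only peaks were wider than 1 kb, beside 19.0% of the whole list. The widest, chr11:2218669-2222130, spanned 3462 bp with a fold enrichment of 6.29 and was the only one over 2 kb. A replicate 2 peak with a fold of 30.2 lay 720 bp from it. The next were chr10:5592319-5594313 (1995 bp, fold 4.78, with a replicate 3 peak 916 bp away) and chr1:150954051-150955723 (1673 bp, fold 2.46, nearest other-list peak 6160 bp away). At chr19:16044995-16046595 (1601 bp, fold 6.93, −log10 q 23.4) a replicate 3 peak of fold 4.37 was 480 bp away, while the nearest replicate 2 peak was 95569 bp away. The fifth, chr11:75050649-75052213, spanned 1565 bp at a fold of 3.62, with a replicate 2 peak at 633 bp. Width and isolation did not go together in these 5.

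Stitching of replicate 1-only peaks that lay 10 kb apart or less left 6064 of them (68.1%) as single peaks. There were 945 pairs and 270 runs of at least 3 peaks, which held 951 peaks (10.7%). The most peaks in a run were 8, in 2 runs. One covered chr1:10715047-10743185 (28.1 kb), where the folds ran from 2.27 to 9.57 with a median of 3.57, and it was interspersed with 5 shared replicate 1 peaks, 6 replicate 2 peaks, 2 replicate 3 peaks and 5 unassigned peaks. The other covered chr3:128036555-128066703 (30.1 kb) at a median fold of 2.81, with 7 shared replicate 1 peaks, 9 replicate 2 peaks and 11 unassigned peaks. These runs were stretches in which all lists had peaks and replicate 1 had further ones between them.

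Of the runs of 7 peaks, 3 are given here. At chr21:17491246-17500164 (8.92 kb, median fold 4.75) there were 3 shared replicate 1 peaks and 3 replicate 2 peaks among them. At chr5:107623572-107641256 (17.7 kb, median fold 3.41) there were 2 shared replicate 1 peaks, 3 replicate 2 peaks and 0 unassigned peaks. The run at chr1:16399773-16418930 (19.2 kb, median fold 3.66) held 1 shared replicate 1 peak, 1 replicate 2 peak and 1 unassigned peak. In these 3 stretches, as in the chromosome 1 run of 8 but not the chromosome 3 run, the replicate 1-only peaks outnumbered the peaks of each other list. A further 2 runs of 7 were longer in bp and are not named here.

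Over the genome the peaks were spread widely. Of 2601 windows of 1 Mb that held a replicate 1 peak, 2162 (83.1%) held at least 1 replicate 1-only peak. In the 785 windows with at least 20 replicate 1 peaks the replicate 1-only share ran from 0 to 54.5% with a median of 19.6%. The window with the largest number, picked after its values were seen, was chr10:80000001-81000000 with 30 of its 57 replicate 1 peaks (52.6%, 39.0 to 66.0). The same window held 42 replicate 2, 31 unassigned and 14 replicate 3 peaks, the 30 peaks had folds of 2.27 to 6.42, and 10 of them were within 1 kb of another list's peak.

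Among chromosomes, 19 had the lowest share of replicate 1-only peaks, 309 of 2085 (14.8%, 13.3 to 16.4), followed by 17 with 415 of 2240 (18.5%, 16.9 to 20.2). The highest shares were on chromosome 18, with 213 of 822 (25.9%, 22.9 to 29.1), 13 with 217 of 852 (25.5%, 22.6 to 28.5) and 10 with 480 of 1918 (25.0%, 23.1 to 27.0). Per Mb, replicate 1-only peaks were densest on chromosomes 22 (6.16), 19 (5.25) and 17 (5.12) and, leaving out Y, sparsest on X (1.39). All replicate 1 peaks were likewise densest on these chromosomes, with 31.8, 35.4 and 27.6 per Mb, and sparsest on X, with 7.25. The density of the set thus followed that of the whole list. The strength of the list also differed between chromosomes: the median −log10 q of all replicate 1 peaks was 18.7 on chromosome 19 and 9.28 on 18. Among peaks with a −log10 q from 3 to 7, the shares on these 2 chromosomes were 38.4% and 45.7%. Leaving out Y, with 1 peak in that band, the lowest share there was 36.9%, on the X chromosome, and the highest 49.1%, on 16. The Y chromosome held 2 replicate 1 peaks, of which 1 was in replicate 1 alone, and whole-chromosome copy number in these cells was not analysed here.

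**Figure D4:**
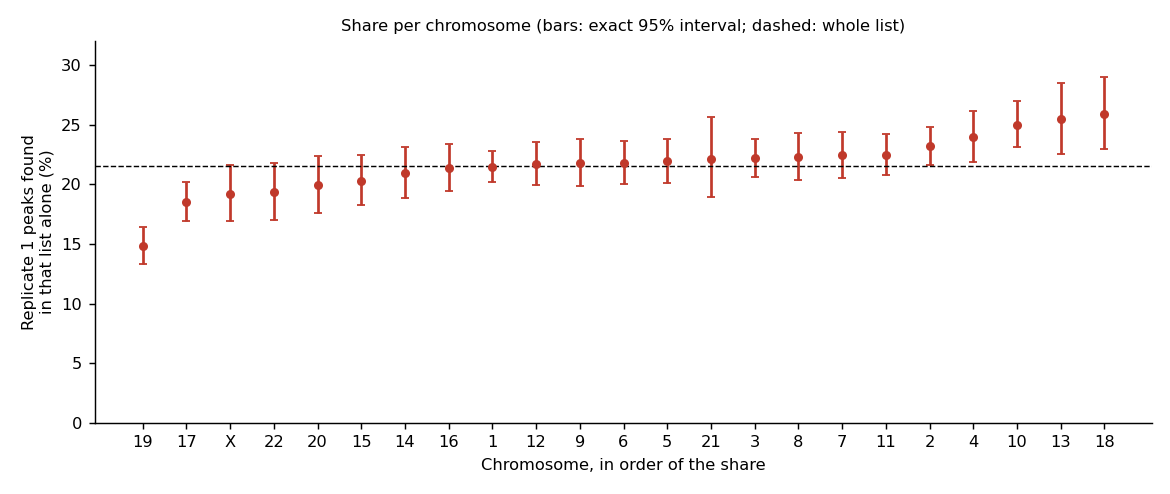
Share of replicate 1 peaks found in replicate 1 alone (percent, points with exact 95% binomial intervals) on each chromosome in order of the share, with the whole list as the dashed line and the Y chromosome, with 2 peaks, left out. Chromosome 19 is lowest at 14.8% and chromosome 18 highest at 25.9%, and most intervals include the value of the whole list.

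Sites that were also called against IgG in replicate 2 were nearly absent from the set. Of all replicate 1 peaks 16.3% shared a base with that list, of the shared peaks 20.8%, and of the replicate 1-only peaks 1 peak. This near absence follows from the rule, because 7505 of the 7506 peaks called against IgG in replicate 2 also shared bases with the list against input. The exception, named after its values were seen, was chr21:9881611-9881878, with a fold of 9.54 and a −log10 q of 35.8 in replicate 1. It shared 251 bases with a peak of fold 3.25 called against IgG, and a replicate 2 peak against input with a fold of 4.84 lay 208 bp away.

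The same rule applied to each other list gave sets of another make-up. In replicate 2, 11740 of 45216 peaks (26.0%) were in that list alone, in replicate 3 11612 of 18232 (63.7%) and in the unassigned list 1703 of 36205 (4.70%). The replicate 1-only peaks had the lowest median fold, 3.39 beside 4.26, 4.26 and 4.08. The medians of the whole lists were 4.67 in replicate 1, 6.50 in replicate 2, 4.40 in replicate 3 and 6.39 in the unassigned list. A −log10 q of at least 5 was met by 50.7% of the replicate 1-only peaks, beside 16.4%, 0.766% and 11.2%. Over the whole replicate 1 list it was 80.7%, and for the other whole lists it was not computed. These orders cannot be told apart from differences between the whole lists. Positions within 1 kb of another list's peak made up 41.7% (40.7 to 42.8) of the replicate 1-only peaks, 29.7% (28.9 to 30.6) of those of replicate 2, 4.43% (4.06 to 4.82) of those of replicate 3 and 29.9% (27.7 to 32.1) of those of the unassigned list. The most frequent 50-bp class of gaps began at 150 bp in replicate 1, at 200 bp in replicate 2, at 100 bp in the unassigned list and at 450 bp in replicate 3, where it held 36 peaks. The lists differ in length, and the differences between these sets were not tested.

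The most remote peaks, named after their values were seen, were weak or moderate in strength, as most replicate 1-only peaks were. The largest gap to any of the 3 lists was 728867 bp, at chr2:116284678-116284899, and a second replicate 1-only peak stood 605 bp from it. At chrX:34675595-34675818 the gap was 548834 bp with a fold of 5.49, and another replicate 1-only peak lay at 228 bp. Over 100 kb there were 200 peaks (2.25%) with a median fold of 3.49 and a highest fold of 7.86. For all replicate 1-only peaks these values were 3.39 and 17.6. The median −log10 q of the 200 was 5.65, beside 5.12 for the set. It was at least 5 for 56.0% (48.8 to 63.0) of them, beside 50.7%.

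The rule counts 1 shared base as shared, and its edge was thinly populated. A total of 4 replicate 1-only peaks adjoined a peak of another list with 0 bases between them: chr1:62034784-62035471 (fold 3.39), chr1:162679250-162679569 (3.28), chr10:115515166-115515473 (3.84) and chr6:57148439-57148881 (2.57). At chr10:81166696-81166985 (3.52) 1 base lay between. In all, 47 replicate 1-only peaks had a gap of at most 10 bp. On the other side, 10 replicate 1 peaks were left out for 1 shared base and 57 for at most 10. The first 5 of these were chr16:66784636-66784842 (2.97), chr18:56746381-56746700 (3.17), chr19:34790281-34790629 (3.90), chr4:3533231-3533422 (2.91) and chr4:58310102-58310728 (2.43). The fold enrichment of the 5 peaks named on each side of the edge lay in the same range, and the others near the edge were not compared.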

How the data were processed

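The deposited data were 6 peak lists from HOXB13-K13ac ChIP-seq. The submitters' processing notes name MACS2, Bowtie2, BWA and CASAVA 1.4, and the build hg19 (GRCh37). The role of a tool, the calling threshold and any filter were not given in the sources used here. The authors deposited for each peak a fold enrichment, which is a ratio to the control, and a −log10 p and −log10 q. No read counts were used, so depth is unknown. Lists were tied to libraries by the spelling of the labels.

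Overlaps (at least 1 base), gaps and runs (stitching at 10 kb) were computed with SciPy 1.17.1, pandas 2.3.3 and NumPy 2.4.6 under Python 3.11.15. The count of 8905 equalled that of bedtools 2.31.1, and all 2000 gaps in simulated lists were recovered. Intervals are exact (Clopper-Pearson) at 95%. No test was made, since the members were chosen on these lists. The members and lists were chosen with earlier results of these data known. Named by rule were the 15 members of highest fold, the 5 widest, the 5 runs with the most members (shorter runs first) and the 5 peaks on either side of the rule's edge; other named peaks are marked. Genes, transcription starts, motifs and sequences on hg19 were not analysed here.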

Additional observations from a re-analysis of the deposited data

How the results depend on the processing

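Each choice was changed in turn, and the count of 8905 peaks, the median fold of 3.39, the median width of 348 bp, the 71.0% within 10 kb of another list and the 270 runs were recomputed. When sharing needed 0.5 of both widths, they were 16204 peaks, 3.61, 383 bp, 84.1% and 1029 runs. When it needed summits within 100 bp, they were 20312, 3.78, 454 bp, 87.3% and 1486. When no peak was allowed within 1000 bp, they were 5190, 3.34, 344 bp, 50.3% and 85. Limited to replicate 1 peaks at a −log10 q of 5 or more, they were 4519, 4.01, 380 bp and 47 runs, with 70.6% within 10 kb. When the other lists were limited in this way, there were 12139 peaks, a fold of 3.47, 365 bp, 55.6% and 526 runs. Leaving out replicate 3 or replicate 2 gave 8972 to 13400 peaks, folds of 3.40 to 3.48, widths of 348 to 368 bp, 67.0% to 64.0% within 10 kb and 274 to 637 runs, the second value of each pair being without replicate 2. Stitching at 20 kb gave 432 runs. Leaving out the unassigned list (9360 peaks) or adding the lists against IgG (8904) kept both counts within 1.5 times and the medians and the share within their 95% intervals. In each overlap alternative a peak that still touches another list counts as within 10 kb.

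No paired analysis was possible because the peaks come from the list of 1 library and no result comes from a test. Replicate 1 could not be left out, since the peaks come from its list. The share near transcription starts and the motif share were not run, as no hg19 annotation or genome was used. Without read counts, a site missing from a list cannot be told from one below its calling limit.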
